A study of Homo sapiens with 4 samples.

Results

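An IgG pull-down is the negative control of an RNA immunoprecipitation: an antibody with no chosen target is taken through the same lysate, beads and washes, and the RNA that comes down with it is the background of the experiment. Here that background was measured in the human osteosarcoma line U2OS by setting the IgG pull-down against the input of its own lysate. Genes were taken as members when the IgG input held at least 50 reads, which kept 10915 of the 60676 genes in the table. Of these, 10900 lie on nuclear chromosomes and 15 on the mitochondrial chromosome.

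The assay was nRIP-seq, a native nuclear RNA immunoprecipitation: nuclear lysate is incubated with antibody without crosslinking, so that RNA held by weak contacts can be kept or exchanged during the washes. Polyadenylated RNA was then amplified with SMART-Seq v4, a kit for very low input. The series holds 4 libraries of untreated U2OS cells grown in serum-containing medium, each 1 library: the IgG pull-down, an LC3B antibody pull-down, and a matching input for each, prepared with no antibody. LC3B is a ubiquitin-like protein of autophagosome membranes. Below, "the LC3B pair" stands for the LC3B input and the LC3B pull-down, with values in that order. With 1 library per group, no difference has a replicate check. No p-value was computed, and the 95% intervals given are exact binomial (Clopper-Pearson) intervals unless named otherwise. They cover counting error only, since PCR copies were not marked by molecular identifiers and reads are not independent molecules.

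Non-specific recovery in such an assay is usually small in mass, so the amount of RNA going into amplification differs from that of an input. Background RNA is commonly pictured as a thinned copy of the input, in which abundant RNAs come down in proportion and rare ones are sampled by luck.

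The IgG input held 10886762 reads and the IgG pull-down 10000914, and the totals of the LC3B libraries lay between 10456770 and 10782146. The IgG input had reads on 22947 genes and its pull-down on 14440, although the totals were close. Of 11 markers of mesenchymal and osteosarcoma lines, 10 were measured and none was called in either direction, while TWIST1 had 0 reads in each of the 4 libraries. Of 21 markers of other cell types, 20 fell under 50 input reads. The epithelial marker EPCAM was the exception, with 153 reads in the IgG input and 253 after IgG pull-down, beside 128 and 184 in the LC3B pair. The marker list of other cell types summed to 32.4 CPM (the share of non-mitochondrial reads, scaled as usual) in the IgG input and 29.7 CPM in the IgG pull-down. EPCAM carried most of that, and without it the sums were 14.2 CPM and 3.97 CPM, beside 14.6 and 16.5 in the LC3B pair.

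Mitochondrially encoded RNAs lay far below input. These RNAs are transcribed and kept inside the organelle, and they took 22.8% of the IgG input but 1.76% of the IgG pull-down. All other folds were therefore computed on totals without them, 8404123 reads for the IgG input and 9824400 for its pull-down. Each of the 15 measured mitochondrial genes was lower on that scale, by 5.13 to 73.9 times, with a median fold of 0.0879. MT-RNR2, the large ribosomal RNA of the organelle, went from 1107662 to 17515 reads, a fold of 0.0135 (0.0133 to 0.0137). MT-ND4L, a complex I subunit, showed the smallest loss, from 285 to 65 reads, a fold of 0.195 (0.147 to 0.256). No mitochondrial gene was at 0, so this loss was a lowering across the chromosome and not a dropout. The same loss was present in the LC3B pull-down over its own input, where MT-RNR2 had 32875 reads against 1003586, a fold of 0.0270. The 5 measured nuclear copies of mitochondrial sequence, a list added after the data were seen, were also each called lower, with a median fold of 0.0415. MTATP6P1, a nuclear copy of the ATP synthase subunit genes, fell from 16247 to 789 reads. Reads of such copies cannot be told apart from mitochondrial reads where the sequences are the same.

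Among nuclear genes, the IgG pull-down was not a proportional copy of its input. Genes whose interval for the fold lay wholly at 2 or above were called higher, and those whose interval lay wholly at 0.5 or below were called lower. By this rule 769 of 10900 genes (7.06%) were higher and 3076 (28.2%) were lower, 35.3% in all. Of the genes called lower, 1147 had 0 reads in the pull-down, which is 10.5% of all genes measured, and 1929 were lower with reads present. The median fold was 0.808, with the 25th percentile at 0.336 and the 75th at 1.36. More genes were lower than higher under each scaling tried, but the share of higher genes depends on the total used. With mitochondrial reads kept in the totals, the median of all genes moved up by 0.35 on the log2 scale and higher genes made up 36.35% of calls in place of 20%. Median-of-ratios scaling moved that median by 0.13.

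**Figure D1:**
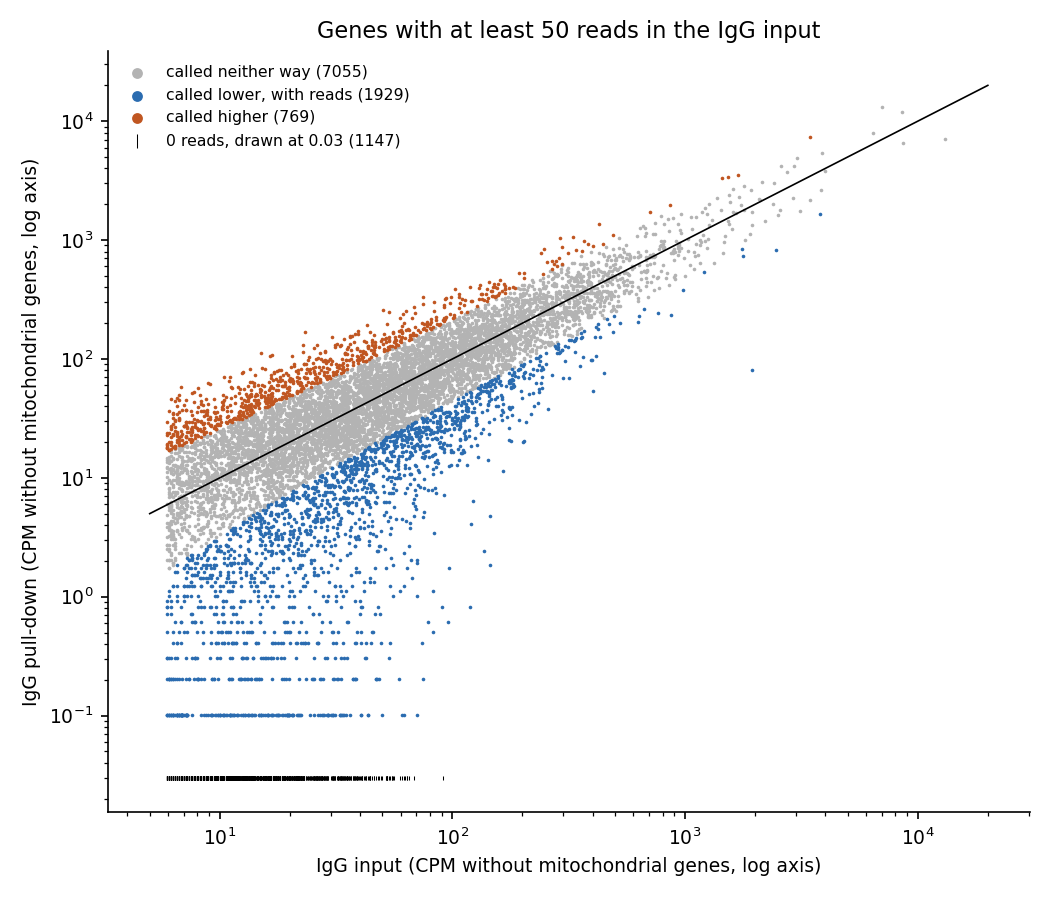
Each point is 1 nuclear gene with at least 50 reads in the IgG input, placed by its CPM in the IgG input (horizontal) and in the IgG pull-down (vertical), both on log axes, with the line marking equal CPM. The 769 genes called higher and the 1929 called lower with reads fan out towards low input, and the 1147 genes with 0 reads form the row of ticks at the bottom.

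The same rule gave far fewer calls elsewhere in the series. The LC3B pull-down over its own input had 133 of 11107 genes higher (1.2%) and 621 lower (5.59%), with 3 at 0 reads (0.027%). The 2 inputs, set against each other over the 10900 genes, gave 0 higher (0%) and 11 lower (0.101%). Of these missing genes, 0 also lacked reads in the LC3B pull-down. Their median was 97 reads in the IgG input, beside 100 and 116 in the LC3B pair. The missing RNAs were thus measured in both lysates, and each of them had reads after pull-down with the other antibody.

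Dropout was tied closely to input level. Of 2033 genes with 50 to under 100 input reads, 598 had 0 reads in the IgG pull-down, 29.4% (27.4 to 31.4). The share was 17.3% (15.8 to 18.95) at 100 to under 200 reads and 4.85% (4.09 to 5.70) at 200 to under 500. It was 0.513% (0.235 to 0.971), or 9 of 1755 genes, at 500 to under 1000 reads. Among 1108 genes with 1000 to under 2000 input reads 0 were missing, with an exact upper limit of 0.332%, and among 827 genes with 2000 or more 0 were missing, with an exact upper limit of 0.445%. The 4 read classes under 1000 had intervals that did not overlap. A proportional copy of the input, scaled to the pull-down's total, would have held at least 58.4 reads of each member. The genes just inside and just outside the minimum were much alike: 30.9% of 291 genes with 50 to 54 reads were at 0, against 35.9% of 304 genes with 45 to 49.

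**Figure D2:**
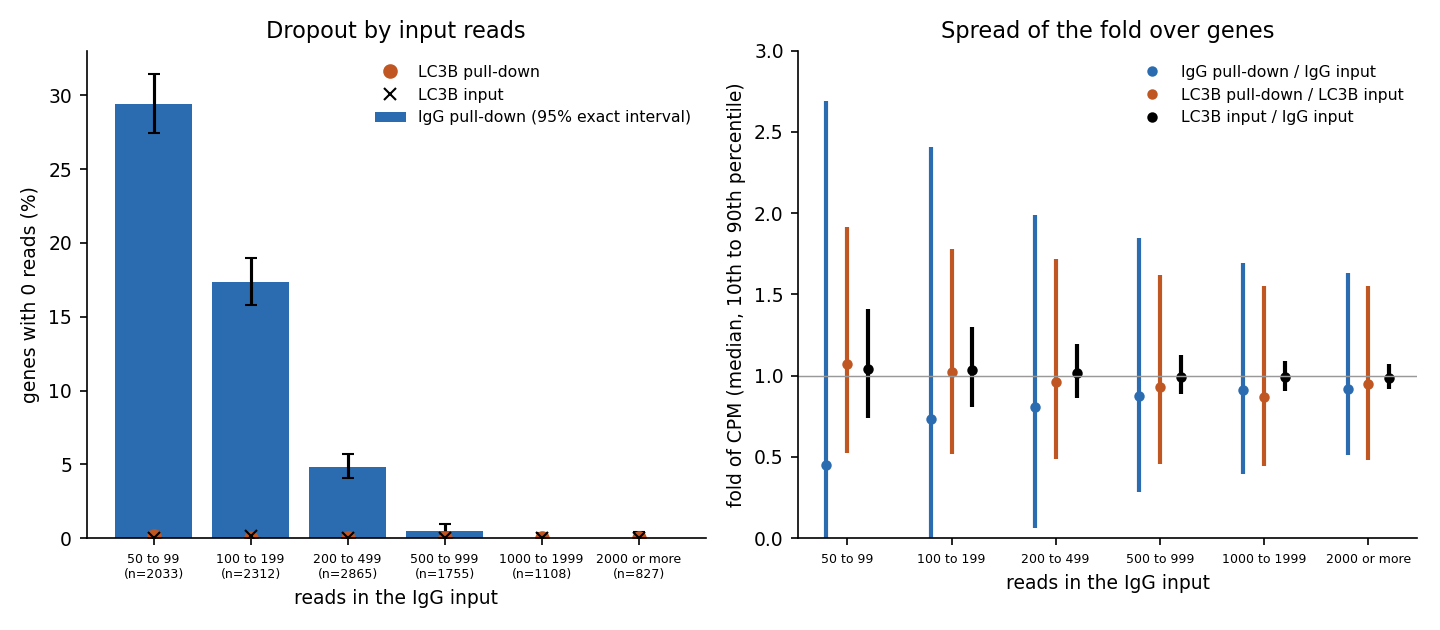
Left, the percentage of genes with 0 reads by class of IgG input reads, as bars for the IgG pull-down with 95% exact intervals, circles for the LC3B pull-down and crosses for the LC3B input. Right, the median fold with its 10th to 90th percentile range over genes for 3 comparisons: IgG dropout falls from 29.4% to 0 with input reads while the other libraries stay near 0, and the IgG range narrows from left to right.

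The scatter ran in both directions at low level, with genes far above input in the same classes that held the missing ones. At 50 to under 100 input reads 10.3% of genes were called higher and 46.8% lower, and the 90th percentile of the fold was 2.69 while the 10th percentile was 0. At 2000 or more reads 3.51% were higher and 7.98% lower. The ratio of the 90th to the 10th percentile of the fold narrowed from 30.9 at 200 to under 500 reads to 6.44, 4.29 and 3.20 in the next 3 classes. For the LC3B pull-down over its input that ratio stayed between 3.24 and 3.67 in all 6 classes. Between the inputs it went from 1.91 to 1.17. At 2000 or more input reads the IgG and LC3B spreads were thus of one size, 3.20 against 3.24. Counts of 1 to 3 reads were fewer than zeros, in 284 genes against 1147. Strong loss with reads left was common, however: 1768 genes had a fold under 0.1, zeros included, and 1929 genes called lower had reads.

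The missing genes with most input reads came from many pathways. ABHD14B, an alpha/beta hydrolase gene (ENSG00000114779, hg38, chr3:51968510-51983409), had 768 reads in the IgG input and 0 after IgG pull-down, beside 689 and 1082 in the LC3B pair. It was 299-fold lower in the IgG pull-down when 3 reads were assumed there in place of 0. The exact interval of its fold reached up to 0.00412, a smaller loss than that. PHF3, a regulator that binds RNA polymerase II, had 574 reads in the IgG input and 0 after IgG pull-down, beside 540 and 321 in the LC3B pair. LRP6, a Wnt co-receptor, had 502 reads in the IgG input and none after pull-down, beside 602 and 481. All 3 were well sampled in 3 libraries and unseen in 1.

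GINS1, a subunit of the replicative helicase, and NUP58, a nuclear pore protein, each went from 536 input reads to 0. That is 209-fold lower if 3 reads are assumed, with an exact upper limit of 0.00591 for the fold. KPNA3, an importin alpha, went from 528 reads to 0, and NR1D2, a clock nuclear receptor also called REV-ERB beta, from 508 to 0. CTTNBP2NL (547 reads), a partner of the striatin phosphatase complex, and AIDA (518 reads) complete the 9 missing genes with at least 500 input reads. Below them stood ZNF32 (472 reads), the deubiquitinase YOD1 (469), C17orf80 (463), the TFIID subunit TAF2 (461), the adenylate kinase AK3 (451) and the G protein subunit GNA13 (450). Together the missing genes held 1.72% of the members' input reads, so they were many genes with little of the RNA.

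The genes highest over input were themselves poorly covered there. MVP, the major vault protein, rose from 196 to 1656 reads, a fold of 7.23 (6.23 to 8.42), beside 192 and 562 in the LC3B pair. MIEF2, a receptor for the mitochondrial fission machinery, had 127 and 1107 reads, a fold of 7.46 (6.20 to 9.03), beside 115 and 219. IKBKB, the IKK beta kinase of NF-kappa B signalling, had 56 and 492 reads, a fold of 7.52 (5.69 to 10.1), beside 78 and 101. The largest fold was 8.49 (6.46 to 11.4), for the long non-coding RNA AC109347.1, which had 57 reads in the IgG input and 566 after IgG pull-down, beside 77 and 22 in the LC3B pair. Only 125 of 10900 genes exceeded a fold of 4. Members were chosen by input reads alone, which leaves out genes with few input reads and many pull-down reads. The upper end near 8 and the lower end at 0 are therefore not comparable.

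The other genes among the 15 with the highest lower bounds had 52 to 141 input reads. NME1-NME2, a read-through of neighbouring nucleoside diphosphate kinase genes, went from 52 to 454 reads, and its reads may have been divided with those of NME1 and NME2. TBCD, a tubulin folding cofactor, went from 75 to 619, AHNAK2 from 54 to 434 and the kelch adaptor KBTBD7 from 65 to 514. ASPSCR1, a tether of glucose transporter vesicles, went from 141 to 1063. ATG16L2 (55 to 458), GYG2 (68 to 564), SDSL (76 to 603), FARP2 (88 to 697), RAB7B (64 to 506) and NPEPL1 (138 to 1046) had folds between 6.48 and 7.12.

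Most of the most abundant nuclear transcripts lay within 2-fold of input, with folds from 0.436 to 1.88. Of the 10 genes with most input reads, 1 was called. PPIA, the cyclophilin A gene, fell from 31775 to 16198 reads, a fold of 0.436 (0.428 to 0.444). ACTB, the cytoplasmic beta actin, had 110228 reads in the IgG input and 70105 after IgG pull-down, beside 102024 and 131238 in the LC3B pair, a fold of 0.544 (0.539 to 0.549) over the IgG input. GAPDH had 72608 and 64774 reads in the IgG libraries, a fold of 0.763 (0.755 to 0.771). FTL, the ferritin light chain, was at 1.88 (1.86 to 1.89), going from 59055 to 129467 reads, beside 55184 and 23349 in the LC3B pair. Its partner FTH1 was at 1.25, ANXA2 at 1.39, CLU at 1.39, TMSB4X at 0.944, TUBA1B at 0.692 and RPLP1 at 0.631. Of these 10, PPIA alone passed the 2-fold rule.

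Nuclear retained RNA was not set apart in the IgG library. MALAT1, an abundant RNA of nuclear speckles, had 21624 reads in the IgG input and 41588 after IgG pull-down, beside 19809 and 9161 in the LC3B pair, a fold of 1.65 (1.62 to 1.67) over the IgG input. NEAT1, the scaffold of paraspeckles, had 802 and 1156 reads in the IgG libraries, a fold of 1.23 (1.13 to 1.35). Neither was called. Of the 14 nuclear long non-coding RNAs measured, of 19 in the list, 0 were higher, 2 were lower and 0 were at 0 reads. The balance, members higher minus members lower, turned from -2 to 1 when mitochondrial reads were kept in the totals. NORAD, which the list holds although it is known as a mainly cytoplasmic RNA, and TUG1 were the lower ones, both at a fold of 0.297, and both are long, with relative lengths (explained below) of 2.94 and 2.96. MAP1LC3B, which encodes LC3B, was at 1.05 (0.991 to 1.11), FN1 at 1.33 and PRMT1 at 1.43, none of them called.

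Long non-coding RNAs as a gene class were missing less often than their read counts alone would give. Of 690 measured, 77 had 0 reads, 11.2% (8.91 to 13.7), whereas the all-gene shares in their read classes add up to 133.6. Processed pseudogenes had 0 missing of 32, against 6.83 added up in the same way. Protein-coding genes had 1051 missing of 10009, 10.5%, against 975.7. Both non-coding classes are short, with median relative lengths of 0.644 and 0.280 against 1.03 for protein-coding genes. Relative length is the deposited input count divided by the deposited input TPM (reads per transcript length, scaled within the library by the authors), set against the median of all members.

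Read counts mix level with length, and at like read counts longer transcripts were missing more often. Members were divided by relative length into 5 classes of equal size, from class 1 (shortest) to class 5 (longest). At 50 to under 200 input reads, 6.90% of 725 genes in class 1 were missing against 31.5% of 1137 in class 5. At 50 to under 100 reads the 5 length classes ran from 10.5% through 29.3%, 31.4% and 34.1% to 38.3%. Sorted by deposited input TPM, that order was lost. At 2 to 5 TPM length classes 2 to 5 had 27.6%, 30.6%, 31.0% and 26.4% missing, with intervals that overlapped. At 5 to 10 TPM the 5 classes had 13.7%, 24.7%, 19.3%, 18.1% and 10.1%. There the interval of class 5 (7.49 to 13.2) lay under those of classes 2 to 4, of which class 4 was nearest (14.9 to 21.7). It overlapped that of class 1 (9.47 to 18.8). Over all lengths the missing share was 36.1% under 2 TPM, 28.6% at 2 to 5, 17.2% at 5 to 10 and 6.05% at 10 to 20. It was 0.384% at 20 to 50 TPM, 8 of 2081 genes, and 0 of the 1129 and 1408 genes in the classes above that. TPM is a measure of molecules rather than of fragments, so 2 genes with equal reads and unequal length differ in it.

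**Figure D3:**
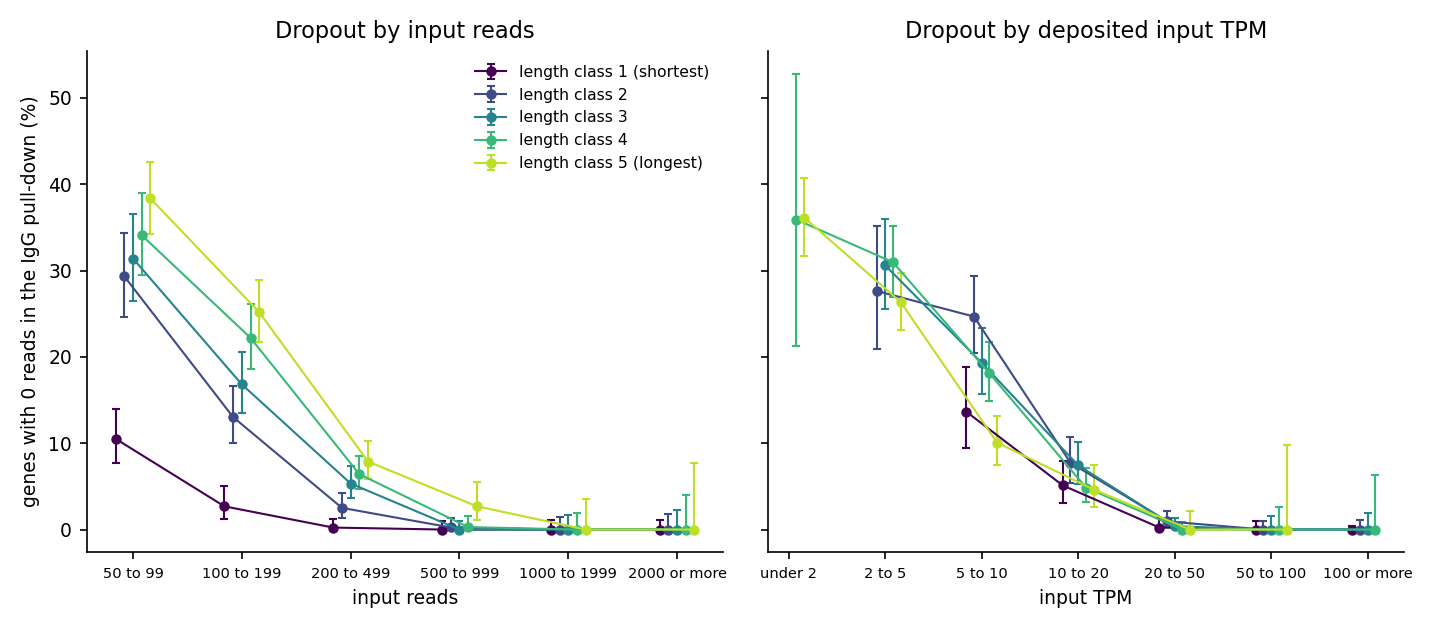
Percentage of genes with 0 reads in the IgG pull-down, with 95% exact intervals, by class of IgG input reads (left) and by class of deposited input TPM (right), 1 line per class of relative transcript length (class 1 the shortest, class 5 the longest). The lines stand apart in the order of length on the left (6.90% in class 1 against 31.5% in class 5 at 50 to under 200 reads) and cross one another on the right.

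Among genes with little dropout, recovery still declined with length. At 20 input TPM or more, a limit chosen after the data were seen, 4618 genes remained, of which 247 (5.35%) were higher and 615 (13.3%) lower. Their median fold by length class was 1.11, 0.981, 0.824, 0.688 and 0.696 from shortest to longest. The share called lower was 5.82%, 10.3%, 17.6%, 27.8% and 24.9%, and the share called higher 6.57%, 6.52%, 5.51%, 1.26% and 0.922%. The LC3B pull-down over its own input, which shares no library with the IgG pair, gave medians of 1.15, 1.003, 0.885, 0.740 and 0.725 for the same genes. Between the inputs the medians were 0.987 to 1.01. Long mRNAs were thus recovered less than short ones in both pull-downs.

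Gene span, the distance between the annotated start and end with introns included, gave a similar order. In 5 equal classes of span among the same genes the median fold was 1.19, 1.06, 0.910, 0.813 and 0.763, from the class of 273 to 7710 bases to that of 63514 bases and more. The genes were also divided into 4 classes of transcript length, each sorted by 4 classes of span, and the order by span was kept in part. In the longest of them the medians ran from 0.996 for the most compact genes to 0.632 for the widest, and in the shortest from 1.18 to 1.05. The share of each property in the result was not tested.

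Recovery also differed between chromosomes. At 20 TPM or more the median fold was 1.32 for the 259 genes of chromosome 19, with 35 called higher and 14 lower, and 1.19 for the 115 genes of chromosome 22, with 12 higher and 6 lower. Chromosomes 11 and 16 followed at 1.13 and 1.12. At the other end stood chromosome 5 at 0.749 (237 genes, 7 higher and 42 lower), chromosome 4 at 0.758 (145 genes, 1 higher and 28 lower) and chromosome 18 at 0.793. The LC3B pair had medians of 1.43 for chromosome 19, 1.16 for 22, 0.792 for 5, 0.787 for 4 and 0.727 for 18, and the inputs lay between 0.977 and 1.01 on every chromosome. Genes of chromosome 19 are shorter (median relative length 0.578) and more compact (median span 11182 bases) than those of chromosome 5 (0.798 and 30874 bases). Each gene was also set against the median of all members of its length class, at any input level. The medians were then 1.35 for chromosome 19, 1.36 for 22, 0.813 for 4, 0.912 for 18 and 0.935 for 5. These values are shifted upward, since the medians of all members lie under those at 20 TPM or more (0.497 against 0.696 in the longest class).

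**Figure D4:**
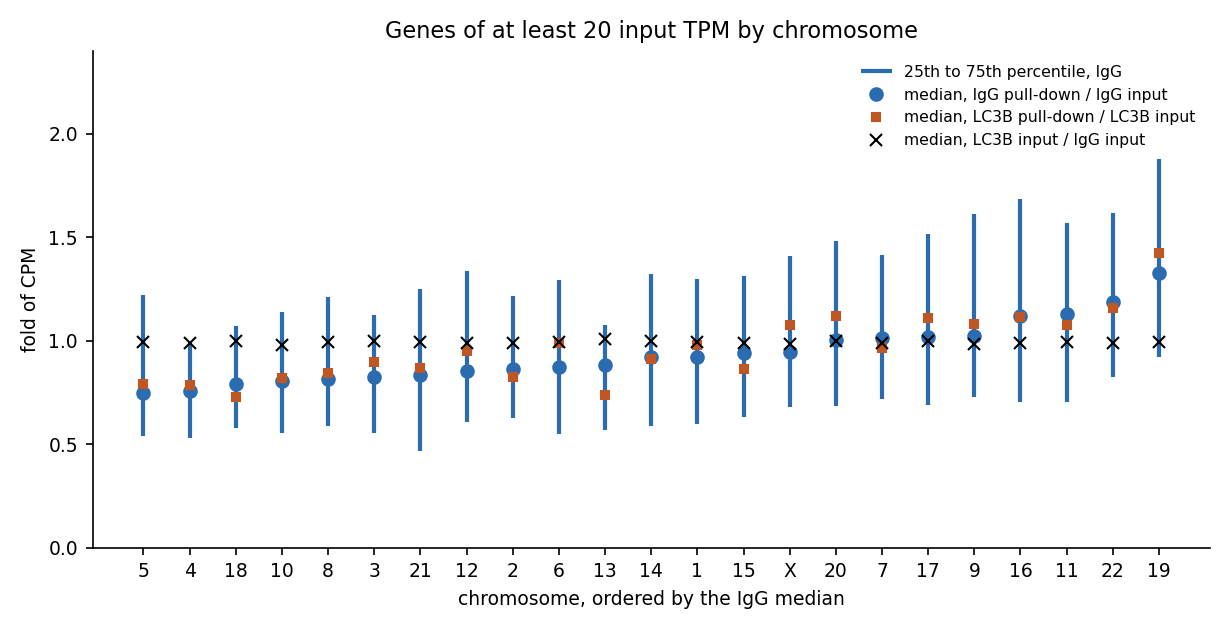
Median fold of genes with at least 20 input TPM by chromosome, ordered by the IgG median: circles with 25th to 75th percentile lines for the IgG pair, squares for the LC3B pair and crosses for LC3B input over IgG input. The IgG medians climb from 0.749 on chromosome 5 to 1.32 on chromosome 19, the LC3B medians follow much of that order and the inputs stay near 1.

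The counts of each gene list stand against the shares over all nuclear genes given above, 7.06% higher, 28.2% lower and 10.5% missing, so members at both ends are usual for a list. Of the lists described here, zinc finger genes had the largest missing share. They encode DNA-binding transcription factors, many of them in clusters on chromosome 19, and their mRNAs are long and scarce. Of 602 in the list 311 were measured, with a median input level of 5.34 TPM, and 89 of them had 0 reads, 28.6% (23.7 to 34.0). The all-gene shares in their read classes add up to 59.2 and those in their TPM classes to 60.8. With these included 159 were called lower, while 26 were higher and the median fold was 0.360. ZNF84 (438 reads) and ZNF770 (441 reads) were at 0 with ZNF32, while ZNF383 (59 to 405 reads, a fold of 5.87) and ZNF875 (87 to 491 reads, 4.83) were the furthest above input. ZNF22, the best covered, fell from 2490 to 1158 reads, a fold of 0.398.

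Taken over members of all input levels, chromosome 19 thus held both ends of recovery. Of its 125 zinc finger genes 45 were missing, 36.0% (27.6 to 45.1), against 27.2 added up from their read classes and 26.6 from their TPM classes, with a median fold of 0.168. Of the 545 other genes there 50 were missing, 9.17% (6.89 to 11.9), against 62.7 and 49.2, with a median fold of 1.16. Zinc finger genes of other chromosomes lay between, with 44 of 186 missing, 23.7%, against 32.1 and 34.1. The zinc finger genes of chromosome 19 and elsewhere had close lengths (1.20 and 1.18) and levels (5.06 and 5.61 TPM). At 20 input TPM or more that order was not kept. The 7 zinc finger genes left on chromosome 19 had a median fold of 0.772, with 0 higher and 1 lower. The 27 left on other chromosomes had a median of 0.642, with 1 higher and 11 lower.

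By median fold, the lists kept best were those of short, abundant mRNAs for mitochondrial and proteasome proteins. Of the 78 mitochondrial ribosomal protein genes 6 were higher, 2 lower and 0 missing, with a median fold of 1.21. MRPS18A went from 923 to 3155 reads, a fold of 2.92 (2.72 to 3.15), and MRPS6 from 693 to 320, a fold of 0.395 (0.345 to 0.452). Of the 78 nuclear-encoded respiratory chain subunits 6 were higher and 0 lower, with a median of 1.17. UQCRC1, a core protein of complex III, had 2436 reads in the IgG input and 10295 after IgG pull-down, beside 2619 and 5468 in the LC3B pair, a fold of 3.62 (3.46 to 3.78). CYC1, the cytochrome c1 of the same complex, stood at 3.17. Of 46 proteasome subunits 4 were higher and 0 lower, with a median of 1.14, led by PSMD2, a base subunit of the regulatory particle, which went from 2075 to 8270 reads (3.41). The balance of these 3 families stayed positive under each scaling tried. Their higher shares of 7.69% to 8.70% stand beside 7.06% for all genes, while their lower shares of 0% to 2.56% stand beside 28.2%. The like set is closer: among genes of at least 20 input TPM in the shortest length class, 6.57% were higher and 5.82% lower. Their median lengths were 0.311 to 0.575 of the overall median and their median levels 106.9 to 332.7 TPM. Nuclear-encoded and mitochondrially encoded subunits of the same respiratory complexes therefore lay on opposite sides, with median folds of 1.17 and 0.0879.

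Cytosolic ribosomal protein mRNAs, by median the shortest and most abundant of the lists, were recovered evenly but slightly under input. Of 79 members 0 were higher, 5 lower and 0 missing. The lower ones fell to folds of 0.364 for RPS12 (2113 to 898 reads), 0.380 for RPS15A and 0.381 for RPL39 among others. The balance of -5 became 1 with mitochondrial reads in the totals. The median fold was 0.781, and 0.745 relative to genes of the same length, against 1.37 in the LC3B pull-down over its own input. RPL and RPS mRNAs share a 5′ oligopyrimidine start that couples their translation to growth signals.

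In other lists of protein synthesis genes the share called lower ran from 9.09% to 17.9%, against 28.2% of all genes. The share called higher ran from 0% to 9.09%, against 7.06%. The median input level of each of these lists was above 20 TPM. Of all genes with at least 20 input TPM 13.3% were lower and 5.35% higher, so the calls were not few for genes of that level. Translation factors had 2 of 44 higher, 7 lower and 0 missing, with EIF6 at 2.39 and EIF3A, the largest subunit of its initiation complex, at 0.220. Aminoacyl-tRNA synthetases had 0 of 23 higher and 3 lower, with EPRS1 at 0.308. Both balances, of -5 and -3, became 2 with mitochondrial reads in the totals. Ribosome biogenesis genes had 7 of 78 higher, 14 lower and 3 missing, and ended level at 0 under that total. BOP1, a factor of large subunit assembly, went from 423 to 2538 reads (5.13, interval 4.63 to 5.70), while NAT10, the RNA acetyltransferase of the nucleolus, and WDR36 went from 146 and 297 reads to 0. Small nucleolar RNA host genes had 2 of 22 higher, 2 lower and 0 missing, with SNHG30 at 3.27 and SNHG29 at 0.424.

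In genes of nuclear RNA handling the share called lower ran from 23.7% to 35.4%, against 28.2% of all genes. Of all genes with at least 20 input TPM 13.3% were lower, and the median input level of SR and hnRNP splicing factors was 135 TPM. Of 38 SR and hnRNP splicing factors 0 were higher, 9 lower (23.7%) and 0 missing, with a median fold of 0.629 and of 0.762 relative to genes of their length. HNRNPA2B1, the most abundant, had 20688 reads in the IgG input and 8071 after IgG pull-down, beside 20427 and 22049 in the LC3B pair, a fold of 0.334 (0.325 to 0.342). HNRNPH1 was at 0.158 and HNRNPL at 0.101. Their median in the LC3B pull-down over its input was 0.979. Many of these genes control their own level through retained or poison exons. DEAD and DEAH box helicases had 4 of 48 higher, 17 lower (35.4%) and 3 missing, with a median fold of 0.681 and of 1.04 relative to genes of their length. DDX6, a decay factor of P-bodies, went from 203 reads to 0, and DDX41 was at 4.25. DDX5 fell from 14836 to 7165 reads, a fold of 0.413.

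Nuclear pore and transport genes had 3 of 60 higher, 19 lower (31.7%) and 6 missing. NUP133, a scaffold nucleoporin, went from 271 reads to 2, beside NUP58 and KPNA3 at 0. RAN, the GTPase that drives transport and the best covered of the list, was at 1.14, and RANGAP1, its activating protein, at 3.24. The median fold was 0.607 but 0.969 relative to genes of the same length, and the family's median relative length was 1.44.

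Homologous recombination and Fanconi anaemia genes had 5 of 44 higher, 18 lower (40.9%, against 28.2% of all genes) and 5 missing (11.4%, against 10.5%), where the shares of their read classes add up to 4.74. BRCA2, a tumour suppressor of homologous recombination, went from 417 reads to 0, beside 392 and 141 in the LC3B pair. MUS81 and FAN1, both nucleases, went from 185 and 188 reads to 0. In contrast RAD51D rose from 139 to 720 reads (4.43), XRCC3 from 67 to 355 (4.53) and FANCA from 201 to 972 (4.14).

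DNA replication genes had 4 of 67 higher, 12 lower and 2 missing. Among the highest of the list were MCM2 (512 to 1610 reads) and MCM6 (467 to 1621 reads), of the MCM helicase, at 2.69 and 2.97. Among the lowest, ORC1 went from 159 reads to 0 and ORC2 from 339 to 1, both of the origin recognition complex. The other subunits of these complexes are not reported here. Mitosis genes had 6 of 80 higher, 17 lower and 0 missing, from ESPL1, the separase, at 5.03 to KIF14, a kinesin of cytokinesis, at 0.0168 (255 to 5 reads). Their balance of -11 came to 0 with mitochondrial reads in the totals.

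Chromatin remodellers and histone methyltransferases had 2 of 58 higher, 18 lower and 3 missing. The paralogous ATPases SMARCA4 (263 to 1246 reads, 4.05) and SMARCA2 (153 to 694 reads, 3.88) were the higher ones, while SMARCA1, the ATPase of another remodeller, went from 243 reads to 0. The demethylases KDM4A and KDM6A went from 160 and 114 reads to 0. Replication-dependent histones, a list added after the data were seen, had 2 of 26 higher, 9 lower and 3 missing. Most of their mRNAs end in a stem-loop without a poly(A) tail, and their near-identical copies make single values uncertain.

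mRNAs of rapidly induced genes were lower at a share near that of all genes, while more were missing than their read classes add up to. The exact interval of the missing share is wide. Of 38 immediate-early and AU-rich element mRNAs 4 were higher, 12 lower (31.6%, against 28.2%) and 6 missing, 15.8% (6.02 to 31.3), against 10.5% of all genes and 2.99 genes added up from their read classes. JUN had 230 reads in the IgG input and 0 after IgG pull-down, beside 310 and 633 in the LC3B pair. ARC, an immediate-early gene best known in neurons, had 194 and 0, beside 178 and 432. HIF1A, the best covered, fell from 1951 to 416 reads (0.182), while PLAUR, the urokinase receptor, rose from 1266 to 4235 (2.86). In iron handling, HMOX1, haem oxygenase, and IREB2, an iron-regulatory RNA-binding protein, went from 225 and 213 reads to 0, although ferritin mRNAs were among the most abundant of the library.

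Autophagy genes are of interest because the companion antibody is directed at LC3B. Of 38 measured 1 was higher, 10 lower (26.3%, against 28.2% of all genes) and 5 missing, 13.2% (4.41 to 28.1), against 10.5% of all genes and 2.16 genes added up from their read classes and 2.34 from their TPM classes. These shares lie near those of all genes at any input level, while the 5 missing genes outnumber the sums from their read and TPM classes. The exact interval of the missing share is wide. ATG4D and UVRAG went from 129 and 123 reads to 0, and ATG16L1, PIK3C3 and ATG4A were the other missing ones. ATG13, part of the initiating kinase complex, was the higher one, going from 363 to 1253 reads (2.95). The list does not hold ATG16L2, a relative of ATG16L1, which was higher (7.12, above). Within the list NBR1, a cargo receptor, fell to 0.0298. ATG4D had 116 and 283 reads in the LC3B pair. A ratio of the LC3B pull-down to the IgG pull-down for these 5 genes divides by a count of 0.

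Secretory and membrane families were mixed. ER translocation and COPII genes had 4 of 58 higher, 15 lower and 1 missing, with SEC31A, an outer coat protein, at 0.116 (1077 to 146 reads) and SEC24A, of the inner coat, going from 152 reads to 0. Lysosome and V-ATPase genes had 8 of 58 higher, 8 lower and 1 missing, with GRN, progranulin, at 3.14 and NPC1, the cholesterol exporter, at 0.0740. Solute carriers had 11 of 134 higher, 48 lower and 17 missing, against 17.6 added up from their read classes. SLC16A1, a lactate transporter, had 1000 reads in the IgG input and 8 after IgG pull-down, beside 1190 and 1560 in the LC3B pair, a fold of 0.00684 (0.00295 to 0.0135). SLC35A5, of a nucleotide sugar transporter family, went from 620 to 4 reads, and SLC52A2, a riboflavin transporter, from 901 to 3468 (3.29). RAB GTPases had 3 of 41 higher, 6 lower and 3 missing, with RAB7B at 6.76.

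Of 42 extracellular matrix and collagen-processing genes 6 were higher, 9 lower and 3 missing, a balance of -3 that became 6 with mitochondrial reads in the totals and 1 with median-of-ratios scaling. PLOD3, a collagen lysyl hydroxylase, went from 258 reads to 1, and COL8A1 went from 176 to 0. LOXL3, a lysyl oxidase, and AGRN, agrin, stood at 4.99 and 4.57. These mRNAs are long (median relative length 1.40), and relative to genes of their length the median fold was 1.74. SPARC, the most abundant of them, was at 0.655.

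In metabolic, chaperone and cytoskeletal families the share called lower ran from 6.45% to 20.7%, against 28.2% of all genes. Their median input levels were 50.9 to 165 TPM, and of all genes with at least 20 input TPM 13.3% were lower. Glycolytic enzymes had 0 of 18 higher, 3 lower and 1 missing, which was PFKFB3 (51 reads), and their balance of -3 became 1 with mitochondrial reads in the totals. ENO2 fell from 276 to 12 reads. Cholesterol and fatty acid synthesis genes had 2 of 31 higher and 2 lower. LSS, lanosterol synthase, was at 3.36 and CYP51A1, the next enzyme of the pathway, at 0.232 (2506 to 680 reads). Chaperones had 5 of 87 higher, 18 lower and 0 missing, against 3.37 added up from their read classes, with BAG6 at 4.33 and HYOU1 at 0.146. Actins and tubulins had 1 of 18 higher and 3 lower, a balance that came to 0 with mitochondrial reads in the totals or median-of-ratios scaling, with TUBB at 0.478.

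**Figure D5:**
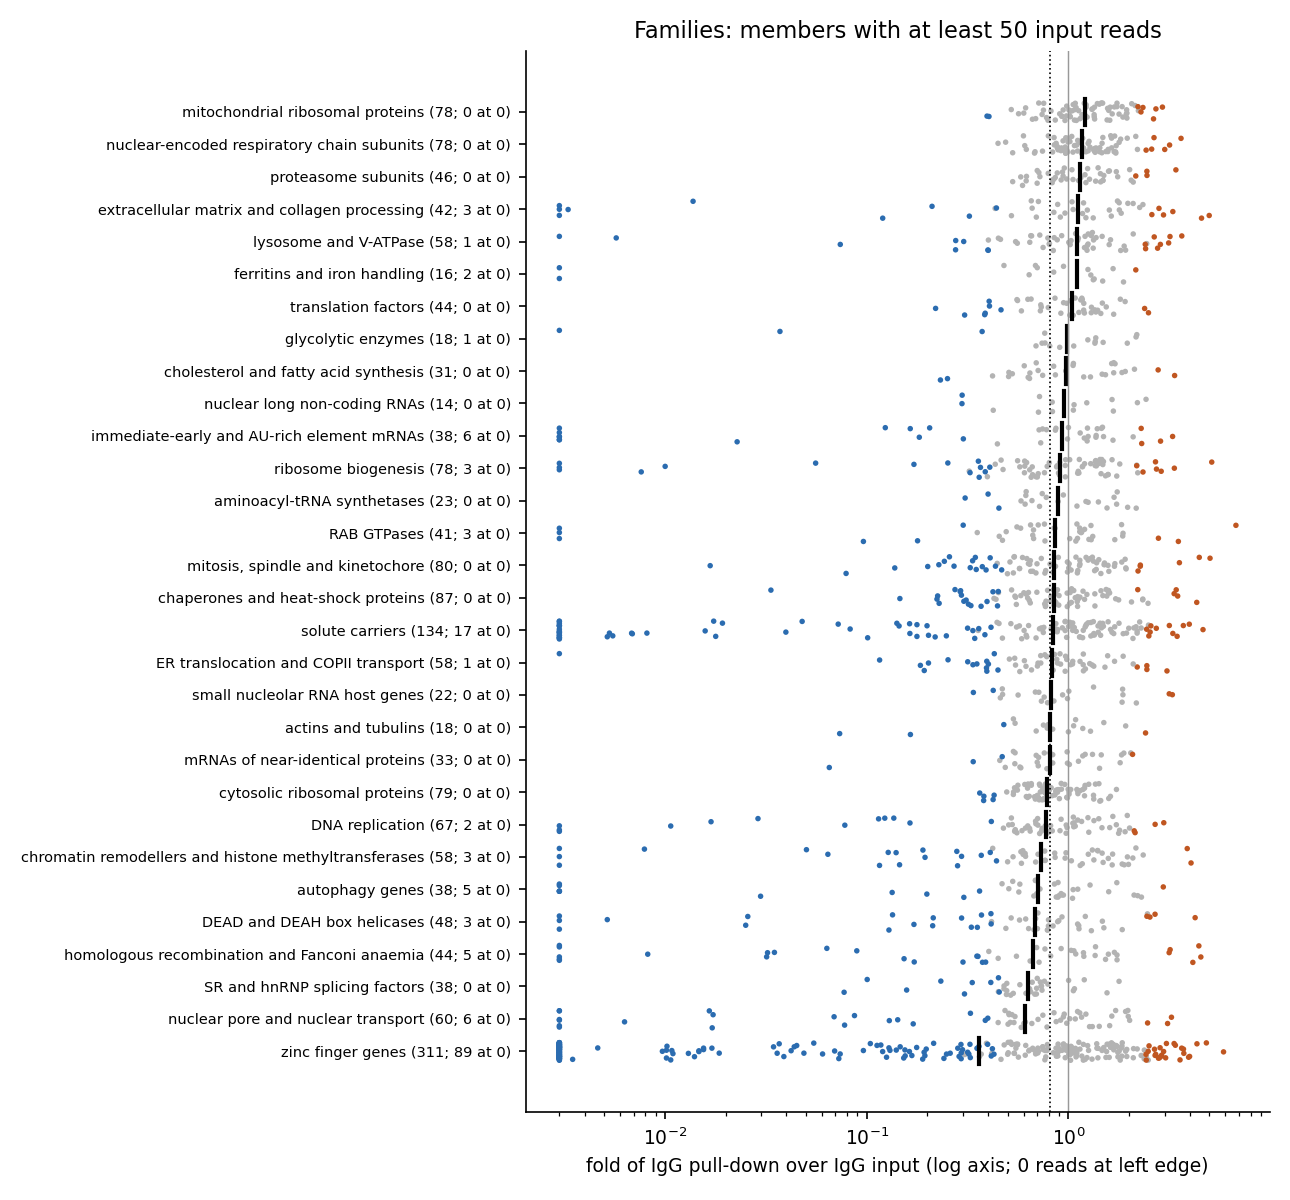
Each row is a gene family and each point a member with at least 50 IgG input reads, placed by its fold of IgG pull-down over IgG input on a log axis; orange is called higher, blue lower and grey neither, black bars are family medians and the dotted line is the median of all genes, 0.808. Members at 0 reads (and ORC2, with 1 read) sit at the left edge, 89 of 311 for zinc finger genes in the bottom row against 0 of 78 for mitochondrial ribosomal proteins in the top row.

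mRNAs that encode the same or nearly the same protein were recovered unequally. H3-3A and H3-3B encode an identical histone H3.3 protein from unlike mRNAs. H3-3A (ENSG00000163041) had 3534 reads in the IgG input and 1941 after IgG pull-down, beside 3617 and 5300 in the LC3B pair, a fold of 0.470 (0.444 to 0.497) over the IgG input. H3-3B had 14207 and 34537 reads, beside 14874 and 25064, a fold of 2.08 (2.04 to 2.12). H3-3A was called lower and H3-3B higher, though both lay near the limits. The call of H3-3A was lost with TMM scaling (0.491), median-of-ratios scaling (0.516), mitochondrial reads in the totals (0.598) or the 10 most abundant genes left out of them (0.474). That of H3-3B was lost against the LC3B input (2.02). The ratio of one to the other within a library needs no scaling. There were 4.02 reads of H3-3B per read of H3-3A in the IgG input and 17.8 after IgG pull-down, beside 4.11 and 4.73 in the LC3B pair.

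Other such pairs moved apart too. PPP2CA and PPP2CB, the catalytic subunits of phosphatase 2A, had 1830 and 131 reads in the IgG input and 1733 and 10 in the IgG pull-down. Their ratio moved 12.4-fold (6.50 to 23.7, a log-normal counting interval). VAMP2 and VAMP3, vesicle SNAREs, had 492 and 649 reads in the input and 1038 and 256 in the pull-down, a move of 5.35-fold (4.47 to 6.40). The actins ACTG1 and ACTB moved 2.17-fold apart and RAB1B and RAB1A 2.59-fold. Of 18 such pairs 6 moved at least 2-fold by the interval between IgG input and pull-down, 1 within the LC3B pair and 0 between the inputs. Each pair was written with the better recovered mRNA first, so the direction carries no information. Reads of near-identical stretches and of pseudogenes, of which ACTB has many, may have been divided between copies.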

How the data were processed

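RNA of U2OS cells was measured by nRIP-seq in 4 libraries, 1 per group (IgG input, LC3B input, IgG pull-down, LC3B pull-down). Per the file headers, the authors deposited raw read counts per gene, with digits grouped by commas, and TPM values that they scaled within each library. The commas were removed and each count was then a whole number. The submitters' processing notes name hg38, cutadapt 2.8 and STAR 2.7.1a. For the counting tool, annotation release, strand setting and duplicates, nothing is given in the sources used here, so overlapping, antisense and near-identical genes may share reads.

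Counts were divided by the total without mitochondrial genes. A count of 3 reads is 0.357 CPM in the IgG input and 0.305 CPM in the IgG pull-down. Folds carry exact conditional binomial 95% intervals, and where a loss is stated for a gene at 0, 3 reads were assumed. Families were described by counts and medians, and the zeros added up from read or TPM classes sum the all-gene share of each member's class. Named genes were the 15 highest lower bounds, the 15 missing genes with most input reads, the 10 most abundant, in each family the most covered and up to 3 extreme members each way, mRNAs of near-identical proteins (some pairs are not reported here by name), and 7 fixed genes. AC109347.1 and others were checked for symbols shared by 2 features (24 members have one). NBR1, ATG16L1, ATG4A and MTATP6P1 were named after their values were seen. The members, 32 gene lists and tests were chosen with earlier results of these data known, and 2 lists were added later. The interval code was tested on simulated counts. Python 3.11.15, numpy 2.4.6, pandas 2.3.3, scipy 1.17.1 and matplotlib 3.10.9 were used. Alternatives covered scaling (TMM and median of ratios, coded from their definitions), the read minimum, the bounds, depth, the other input and TPM.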

Additional observations from a re-analysis of the deposited data

Results flagged for a closer look

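Genes that the input minimum leaves out also carried reads in the IgG pull-down. A total of 16 genes had at least 50 reads in the IgG pull-down and 0 reads in both inputs, against 2 genes in the LC3B pull-down. At 100 reads or more there were 4 such genes with IgG and 0 with the LC3B antibody, and at 10 reads or more 68 and 18. A signal in data outside the measured members drew attention to them, and its cause was not tested.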

How the results depend on the processing

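Each group holds 1 library, so no replicate could be left out. No paired analysis was possible because each group has 1 sample and no result comes from a test. With mitochondrial reads in the totals 1490 genes were higher, and families with more members lower than higher numbered 13 of 31 in place of 24. Without a read minimum 1628 genes were higher and 5665 lower, at 200 input reads or more 338 and 1291, and at 20 input TPM or more (added after seeing the data) 247 and 615. With bounds of 4 and 0.25 there were 47 higher genes, and by the fold alone 1189. TMM gave 891 higher and 2968 lower, and median of ratios 1025 and 2875. Missing genes numbered 2201 at 20 input reads or more and 148 at 200 or more, 1768 if a fold under 0.1 counts as missing, and 1166 after thinning to equal totals. With 2 to 10 TPM in place of 50 to under 200 reads, 13.9% of 231 genes were missing in the shortest length class. In the longest it was 19.9% of 1188. These sets differ in level, since 227 of the shortest lay at 5 to 10 TPM and 721 of the longest at 2 to 5 TPM. Within 5 to 10 TPM the shares were 13.7% and 10.1%. In protein-coding genes alone, at 50 to under 200 reads, the share in the shortest class was 9.94%. SCAP, a sterol sensor at a fold of 0.252 by counts, stood at 1.23 by deposited TPM, and the cause was not tested. Depth limits what a zero means: 3 reads are 0.305 CPM in the IgG pull-down.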
